A study of Homo sapiens with 12 samples.

Results

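The genes described here are the 32 subunits of the Mediator complex, taken by gene symbol from tables that list 57755 gene identifiers for each library. All 32 were found, each at a single locus, and all 32 reached 1 FPKM in 2 or more libraries, as did the 15610 genes tested. FPKM counts fragments per transcript length and library size, so levels can be set side by side between genes. The study treated 2 human esophageal squamous cell carcinoma lines with THZ1, a covalent inhibitor of the transcriptional kinase CDK7, and sequenced their polyadenylated RNA. The medium was RPMI-1640 for KYSE510 and DMEM for TE7. The labels give no transgene or engineered change for either line. Each line gave 1 library from cells in DMSO, the solvent control, 1 library each from cells in 50 nM THZ1 for 2, 4, 6 and 12 h, and 1 library from cells in 200 nM THZ1 for 6 h, which makes 12 libraries. The DMSO libraries are titled 0 h but carry 12 h as their time label, and no DMSO library stands for 2, 4 or 6 h, so time under THZ1 and time in culture cannot be told apart. Every condition therefore has n = 2, 1 library from each line, and the 2 lines are the only replicates. In comparisons between conditions, p-values measure how far the changes differ between these lines, not the spread between cultures of a line.

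Mediator is the large coactivator that carries signals from enhancer-bound transcription factors to RNA polymerase II at promoters, and it stimulates the phosphorylation of the polymerase tail by TFIIH, whose kinase is CDK7. Its core is built from a head and a middle module, which touch the polymerase, and from a tail, which meets the activators, all held together by the scaffold subunit MED14. A separable kinase module, with CDK8 or its paralog CDK19, cyclin C and the MED12 and MED13 proteins, binds the core reversibly and blocks its contact with the polymerase. The 32 genes were grouped as 7 head genes, 9 middle genes, the scaffold gene, 9 tail genes and 6 kinase module genes. In tumour cells Mediator is known for its dense occupancy of the enhancers of highly expressed genes.

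In both lines 12 of 12 squamous markers stood at 1 FPKM or more in DMSO, with summed levels of 3050 FPKM in KYSE510 and 2905 FPKM in TE7, while 0 of 3 endothelial markers and 1 of 5 leukocyte markers did. Of 6 fibroblast markers 1 did in KYSE510 and 3 in TE7, and of 8 glandular markers 2 did in KYSE510 and 3 in TE7, with glandular sums of 1157 and 541 FPKM. Single squamous markers of KYSE510 differed widely between its DMSO and 2 h libraries: KRT6A stood at 14.4 FPKM in DMSO and 1500.1 FPKM at 2 h, KRT14 at 28.7 and 449 FPKM, PKP1 at 1.10 and 103 FPKM and KRT15 at 642 and 82.3 FPKM. Every KYSE510 change from DMSO uses this DMSO library, and the part of that difference in the members' changes was not tested. The glandular marker CDX2 stood in KYSE510 at 0 FPKM in DMSO and at 6.22, 5.94, 5.05 and 1.03 FPKM along the 50 nM hours. At 200 nM it stood at 0.030 FPKM. KRT14 stood at 514 FPKM after 6 h at 50 nM and at 2.62 FPKM at 200 nM in that line. The KYSE510 200 nM library thus also differed from the 50 nM libraries in single markers, and the part of this in the dose comparison was not tested. Across genes, on the log2 scale, the KYSE510 DMSO library correlated with the 2 h library of its own line at r = 0.879, against 0.976 for the same pair in TE7. The 200 nM libraries correlated with the 50 nM 6 h library of their line at r = 0.855 in KYSE510 and 0.865 in TE7, and the 50 nM libraries of a line with each other at 0.923 or more. Summed FPKM per library ran from 383975 to 729515, and the files hold no counts, so depth is unknown. The deposited 95% upper bounds of the members lay a median of 6.44% to 13.9% above their values by library, and at most 45.5% above. Changes are given as differences of log2(FPKM + 1) ± SE from limma with the cell line as a block, with Benjamini-Hochberg adjusted p-values over all 15610 genes and a threshold of 0.05. FPKM is a share of each library: rescaling the libraries by median of ratios raised the median change over all genes by 0.17 at 6 h, by 0.45 at 12 h, by 0.64 at 200 nM against DMSO and by 0.45 at 200 nM against 50 nM. Each call was fitted again under 20 or 21 alternatives, which were other pseudocounts, scalings, filters and variance models, no block, and each library left out. The share of all genes called is given for median-of-ratios scaling but not for the other alternatives. Counts of members under those cannot be set against all genes.

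In DMSO the 32 genes spanned 3.26 FPKM (MED26) to 74.9 FPKM (CCNC) in KYSE510, with a median of 14.8 FPKM. In TE7 they spanned 4.32 FPKM (MED26) to 69.0 FPKM (MED10), with a median of 15.7 FPKM. The tail genes had the highest module median in both lines, at 19.3 FPKM in KYSE510 and 31.3 FPKM in TE7, and the medians of the head, middle and kinase modules lay between 9.68 and 18.1 FPKM. The level of the highest member stood 23.0 times above that of the lowest in KYSE510 DMSO and 16.0 times above it in TE7 DMSO. After 12 h at 50 nM the same ratio was 53.1 in KYSE510 and 88.5 in TE7. The transcripts of the complex were thus further apart in level at 12 h than in DMSO in both lines. The median level of the members was 10.2 FPKM in KYSE510 and 8.92 FPKM in TE7 at 12 h, and 5.57 and 5.45 FPKM at 200 nM.

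After 12 h at 50 nM, 12 members fell and 1, MED13, rose, which is 40.6% of the members called against 28.4% of all genes tested. Among all genes 25.2% were called lower and 3.27% higher. In bulk RNA of this kind, less of a transcript in each cell and fewer cells that hold it cannot be told apart, and FPKM does not carry the amount of RNA per cell. The lower calls were 4 of 7 head genes, 4 of 9 middle genes, 1 of 9 tail genes and 3 of 6 kinase module genes. MED14 was not called. After 6 h at 200 nM, 24 members fell and 0 rose, 75.0% of the members against 38.5% of all genes called in either direction and 35.3% called lower. These 24 were 6 of 7 head genes, 8 of 9 middle genes, MED14, 5 of 9 tail genes and 4 of 6 kinase module genes, and 28 of the 32, 87.5%, were lower than DMSO in both lines, as were 60.0% of all genes. The median change of the members was -0.62 at 12 h, against -0.42 over all genes, and -1.32 at 200 nM, against -0.65 over all genes. The head median was -1.20 at 12 h and -1.68 at 200 nM, the tail median -0.39 and -1.02, the middle median -0.62 and -1.39 and the kinase module median -0.89 and -1.07. Differences between modules were not tested.

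**Figure D1:**
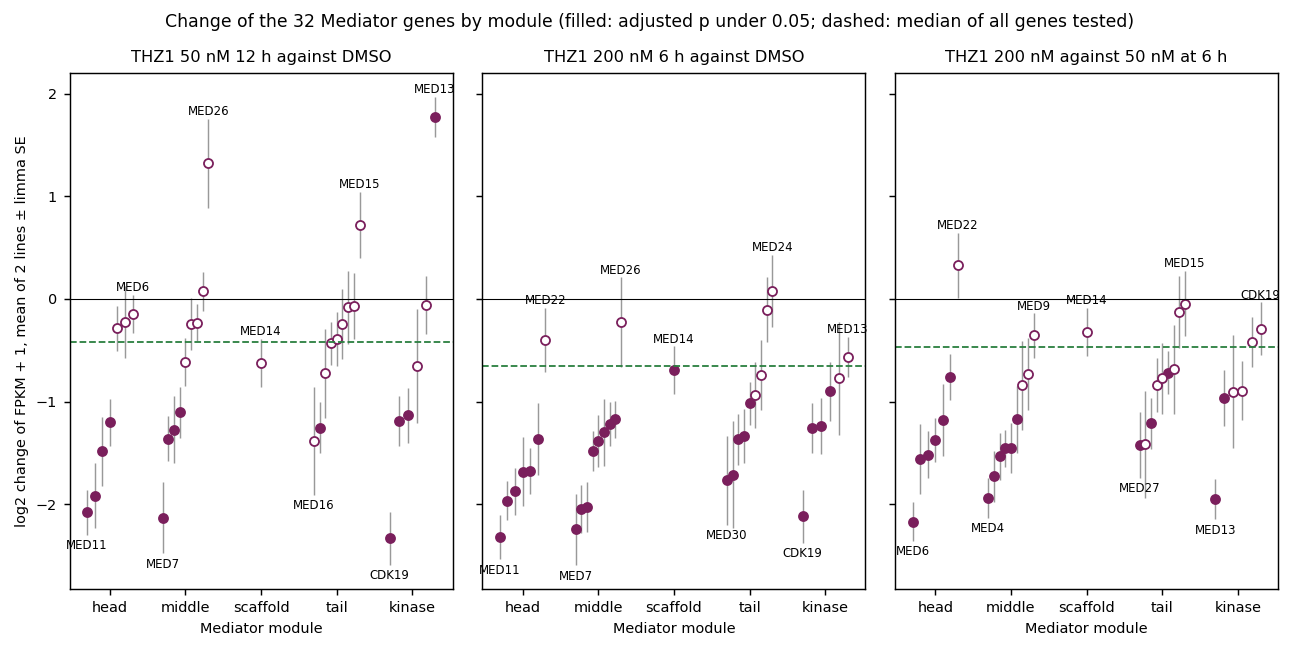
Change of each of the 32 Mediator genes in log2(FPKM + 1), as the mean of the 2 lines with the limma SE as a bar, by module, for 12 h at 50 nM against DMSO, 6 h at 200 nM against DMSO and 200 nM against 50 nM at 6 h. Filled points passed an adjusted p of 0.05, the dashed line is the median of all genes tested, and names mark the highest and lowest gene of each module: at 200 nM against DMSO all head genes but MED22 are filled, while 4 of 9 tail genes are open.

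Rescaling changed these counts. With median-of-ratios scaling the 12 h calls were 5 lower and 4 higher. Of all genes 10.7% were called lower and 11.6% higher at 12 h in that scaling (22.3% in either direction). The 200 nM calls were 9, all lower, 28.1% of the members against 12.1% of all genes called lower (24.3% in either direction). The members called lower at 12 h in both scalings were MED7, MED9, MED11, MED22 and CDK19, and MED13 was higher in both. At 200 nM against DMSO MED4, MED6, MED7, MED11, MED18, MED20, MED21, MED31 and CDK19 fell in both scalings: 4 head genes, 4 middle genes, 0 tail genes and 1 kinase module gene. The median change of the members after rescaling was -0.05 at 12 h, against 0.03 over all genes, and -0.56 at 200 nM, against -0.01. Without the cell-line block the counts were 7 at 12 h and 16 at 200 nM. For this fit and those that follow, shares of all genes called are not given, so a higher or lower count may not be particular to the members. At 12 h 8 members were called without the KYSE510 12 h library, and without the KYSE510 DMSO library and both 200 nM libraries 21 were, among them all 13 of the calls above. At 200 nM 23 were called without the KYSE510 DMSO library, 21 of them among the 24. Without the KYSE510 200 nM library 24 were (22 among the 24), and without that of TE7 22 were (20 among the 24).

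At shorter times few members passed the threshold. After 2 h no member passed the threshold in limma (3 had an unadjusted p under 0.05; 0.0128% of all genes were called), and after 4 h none did either (6 unadjusted; 0.0769% of all genes). Leaving out the TE7 DMSO library gave 4 members at 2 h and 6 at 4 h, and leaving out either 200 nM library gave 2 at 4 h. At 6 h 3 members passed, 9.38% of the members against 4.71% of all genes (0.692% higher and 4.02% lower): MED13 rose, and CDK19 and MED11 fell. Without the cell-line block, or without any 1 of the 2, 4 and 6 h libraries of either line, 0 members passed at 6 h. Without the TE7 DMSO library, or without either 200 nM library, 7 did. Those closest to the threshold at 6 h were MED7 (adjusted p = 0.0516 by limma), MED18 (0.0585) and MED9 (0.0647), with changes of -1.52, -0.92 and -0.86 on the log2(FPKM + 1) scale.

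**Figure D2:**
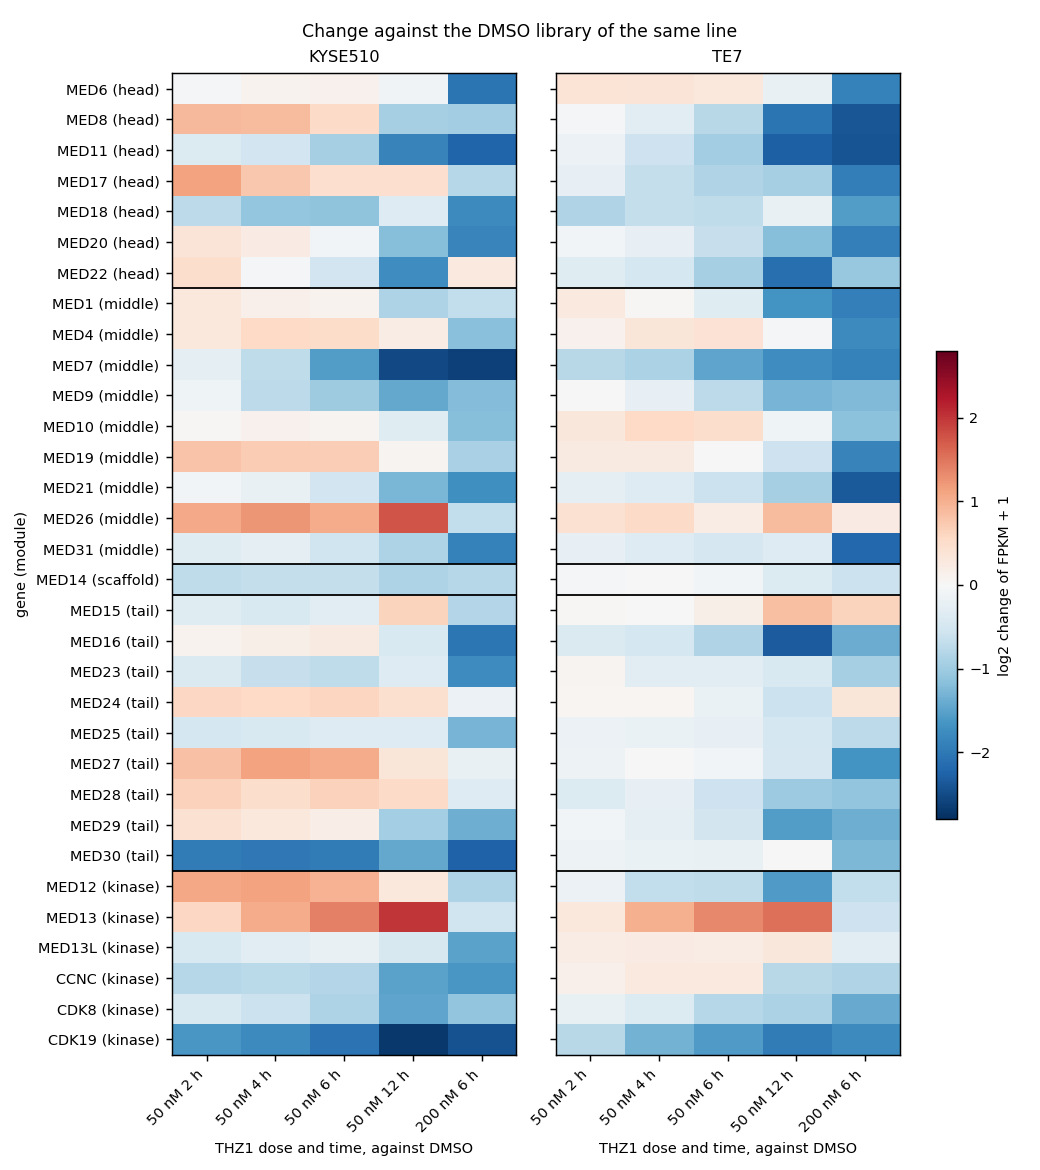
Change of each Mediator gene in log2(FPKM + 1) from the DMSO library of the same line, for the 5 THZ1 conditions in KYSE510 and in TE7, with genes ordered by module. At 200 nM 28 of the 32 genes are lower in both lines (60.0% of all genes were), while at 12 h MED13, MED26 and MED15 are higher in both.

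The stretches of DNA just before the transcription start are shown for the members that fell at 12 h in both scalings, as the sequence in front of genes whose fall did not depend on the scaling. The set of RefSeq starts used here is on GRCh38.p14, a different build from the hg19 of the expression values. This set holds 24 of the 32 members, which is a limit of the set used and not a count over all of RefSeq. MED11, MED9 and CDK19 are printed from it. MED7 has 2 starts there, but 250 and 206 of the 250 bases before them lie in annotated exons, and it is not printed, nor is MED22. The MED11 stretch is chr17:4731178-4731427 on the plus strand, that of MED9 is chr17:17476750-17476985 on the plus strand, and that of CDK19 is chr6:110815959-110816105 on the minus strand, at the most upstream of its 3 listed starts. Bases that lie in an annotated exon were left out, 14 for MED9 and 103 for CDK19. Capitals mark the motifs searched, a GC box (GGGCGG, printed here as CCGCCC since it lies on the other strand) in MED9 and CCAAT boxes in CDK19.
MED11: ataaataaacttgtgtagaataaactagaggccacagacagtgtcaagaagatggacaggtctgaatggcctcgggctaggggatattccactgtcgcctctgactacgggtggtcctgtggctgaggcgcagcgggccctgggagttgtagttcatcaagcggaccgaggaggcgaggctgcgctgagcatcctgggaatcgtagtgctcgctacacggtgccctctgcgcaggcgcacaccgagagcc
MED9: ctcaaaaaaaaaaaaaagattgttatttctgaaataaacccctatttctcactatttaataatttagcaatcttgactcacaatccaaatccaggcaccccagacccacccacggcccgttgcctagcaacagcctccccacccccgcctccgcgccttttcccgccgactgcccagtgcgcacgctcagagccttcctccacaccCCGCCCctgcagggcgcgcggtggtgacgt
CDK19: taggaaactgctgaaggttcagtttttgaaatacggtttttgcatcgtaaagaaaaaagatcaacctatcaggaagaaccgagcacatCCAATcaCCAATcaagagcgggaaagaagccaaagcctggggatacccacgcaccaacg
The MED11 stretch held none of the 5 motifs searched, MED9 held 1 GC box and CDK19 held 2 CCAAT boxes. G and C made up 58% of the MED11 stretch, 54.7% of that of MED9 and 44.9% of that of CDK19. The motifs searched on both strands of the 250 bases before each start were the TATA box as TATAAA, the CCAAT box, the GC box, the core bound by ETS factors as CCGGAAG and the core bound by NRF1 as GCGCATGC, none of which contains another. A gene was counted if the full 250 bases before any of its listed starts held the motif. CDK19 thus counts for the GC box and the NRF1 core, which its printed stretch does not hold. They lie in the bases left out or before another start. GGGCGG lay before 16 of the 24 matched members, 66.7%, against 46.2% of the 27305 genes in the table, and CCGGAAG lay before 5 members, 20.8%, against 10.2%. CCAAT was found for 9 members, 37.5% against 37.0%, TATAAA for 2, 8.33% against 13.0%, and GCGCATGC for 2, 8.33% against 3.22%. These are letter matches and were not tested.

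In the paragraphs on single genes, levels are in FPKM and follow the order DMSO, 2, 4, 6 and 12 h at 50 nM, with the 200 nM level after them. The head module opens with MED11 (ENSG00000161920, chromosome 17, 4634723 to 4636905, hg19), which pairs with MED22. MED11 stood at 19.3, 14.6, 12.9, 9.64 and 4.54 FPKM in KYSE510, and at 3.32 FPKM at 200 nM. In TE7 it stood at 15.5, 13.8, 10.1, 7.43 and 2.39 FPKM, and at 2.10 FPKM at 200 nM. All 10 THZ1 libraries lay below both DMSO libraries, and in each line every later 50 nM library lay below the one before it. The change was -0.95 ± 0.22 at 6 h (adjusted p = 0.0499 by limma, kept in 7 of 21 alternatives and 0.109 with median-of-ratios scaling), -2.08 ± 0.22 at 12 h (0.00136) and -2.32 ± 0.22 at 200 nM (0.000457), and the 12 h and 200 nM calls were kept in 21 of 21 and 20 of 20 alternatives. Relative to the all-gene median the change was -1.66 at 12 h and -1.67 at 200 nM. It shares 85 annotated bases with CXCL16, which averaged 31.8 FPKM over the 12 libraries, and since the strand of counting is not given in the sources used here, reads in that overlap cannot be told apart.

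MED22 (ENSG00000148297, chromosome 9, 136205160 to 136214986, hg19) is the partner of MED11, and the difference between the genes was not tested. MED22 levels in KYSE510 were 10.5, 15.3, 10.2, 6.97 and 2.48 FPKM, and 12.9 FPKM at 200 nM. In TE7 they were 19.7, 15.3, 13.6, 9.88 and 3.82 FPKM, and 8.84 FPKM at 200 nM. Both 12 h libraries were the lowest of their line, and the 200 nM library of KYSE510 was above its DMSO library while that of TE7 was below. MED22 fell by 1.92 ± 0.32 at 12 h (adjusted p = 0.00464 by limma, kept in 21 of 21 alternatives), and its difference from DMSO was -0.40 ± 0.32 at 200 nM (0.341). Between 200 and 50 nM at 6 h MED22 differed by 0.33 ± 0.32 (0.465), where MED11 fell by 1.37 ± 0.22 (0.00409, lost without the KYSE510 50 nM 6 h library).

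MED6, which links the head to the middle, was the most abundant head gene, with a mean of 33.6 FPKM over the 12 libraries (ENSG00000133997, chromosome 14, 71047974 to 71067384, hg19). Its levels were 32.8, 31.9, 35.1, 35.5 and 30.7 FPKM in KYSE510, and 7.21 FPKM at 200 nM. TE7 had 38.8, 50.6, 50.0, 47.7 and 33.6 FPKM, and 9.72 FPKM at 200 nM. The 50 nM libraries overlapped DMSO throughout, and the 200 nM libraries lay below all others. MED6 fell by 1.97 ± 0.19 from DMSO (adjusted p = 0.000479 by limma) and fell by 2.17 ± 0.19 from 50 nM at 6 h (0.000630), both calls being kept in 20 of 20 alternatives, while its difference at 12 h was -0.15 ± 0.19 (0.599).

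MED18 and MED20 form the movable jaw of the head, and MED8 holds that jaw to the rest. MED18, with a mean of 5.36 FPKM the least abundant head gene, stood at 10.2, 5.74, 4.33, 4.14 and 7.78 FPKM in KYSE510, and at 2.26 FPKM at 200 nM. In TE7 MED18 stood at 7.97, 4.02, 4.63, 4.47 and 6.72 FPKM, and at 2.02 FPKM at 200 nM. Every THZ1 library lay below both DMSO libraries, with the 12 h level above the 6 h level in each line. MED20 levels were 14.8, 19.2, 17.5, 14.0 and 5.86 FPKM in KYSE510, and 3.39 FPKM at 200 nM. In TE7 the MED20 levels were 10.1, 9.53, 8.50, 6.13 and 3.83 FPKM, and 1.97 FPKM at 200 nM. The 12 h and 200 nM libraries were below both DMSO libraries, as were those of TE7 at 2, 4 and 6 h. MED18 fell by 1.68 ± 0.22 at 200 nM (adjusted p = 0.00131 by limma) and MED20 fell by 1.88 ± 0.23 (0.00103), each kept in 20 of 20 alternatives. At 12 h MED20 fell by 1.20 ± 0.23 (0.00797, lost with median-of-ratios scaling, without the block and without the KYSE510 12 h library), and the difference of MED18 was -0.29 ± 0.22 (0.372).

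MED8 stood at 11.7, 23.0, 22.6, 17.4 and 5.67 FPKM in KYSE510, and at 5.48 FPKM at 200 nM. In TE7 MED8 stood at 18.1, 17.3, 14.4, 10.1 and 3.64 FPKM, and at 2.63 FPKM at 200 nM. KYSE510 went above its DMSO level at 2 to 6 h before lying below it at 12 h, and TE7 was below its own at every time. MED8 fell by 1.48 ± 0.34 at 12 h (adjusted p = 0.0151 by limma, lost with median-of-ratios scaling, without the block and without either 12 h library) and fell by 1.68 ± 0.34 at 200 nM (0.00674, lost with median-of-ratios scaling). MED17, the backbone of the head, stood at 8.80, 20.5, 15.6, 12.5 and 12.6 FPKM in KYSE510, and at 4.66 FPKM at 200 nM. In TE7 MED17 stood at 23.5, 19.7, 14.5, 12.7 and 11.9 FPKM, and at 5.39 FPKM at 200 nM. The DMSO levels of the lines lie on either side of all 50 nM levels, so only the 200 nM libraries were below both. MED17 fell by 1.36 ± 0.35 at 200 nM (0.0185 by limma, lost with median-of-ratios and equal-sum scaling and without the TE7 200 nM library). Its locus shares 165 bases with TAF1D, which averaged 94.4 FPKM.

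**Figure D3:**
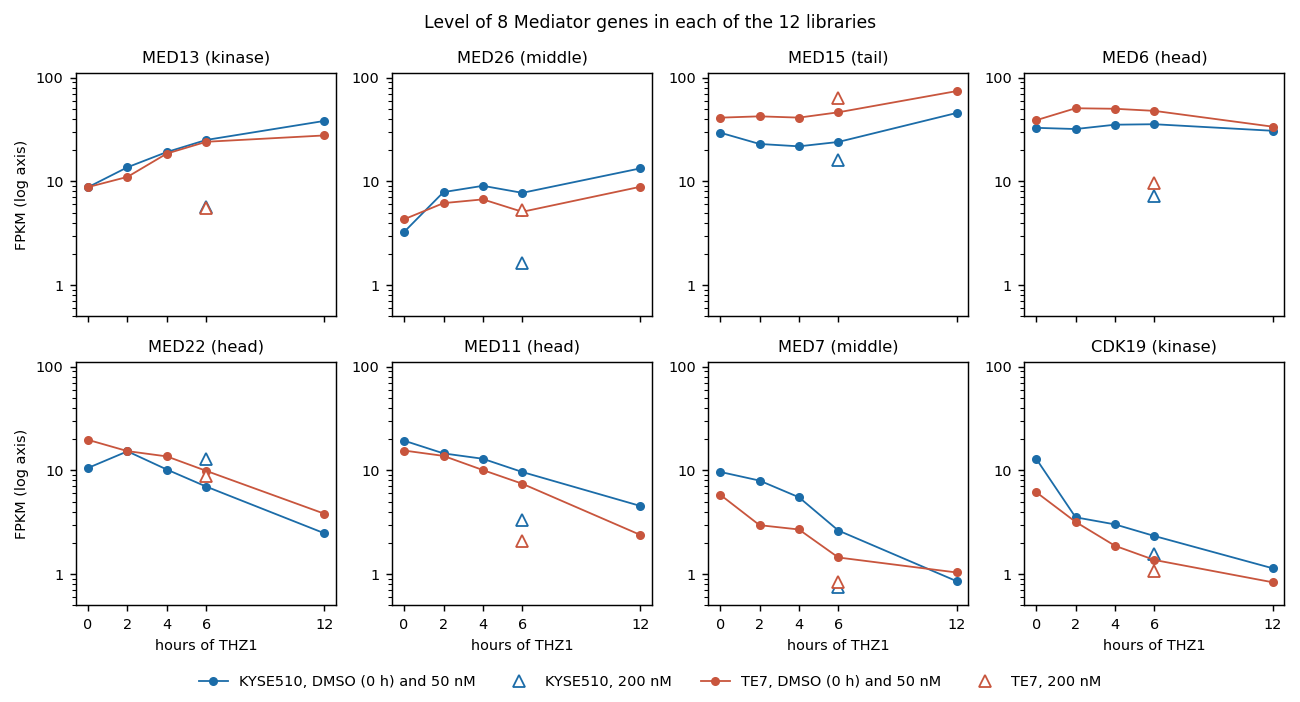
Level of 8 Mediator genes in FPKM (log axis) against hours at 50 nM THZ1, with DMSO drawn at 0 h, 1 line per cell line, and triangles for the 200 nM libraries at 6 h. MED13, MED26 and MED15 end above their DMSO level at 12 h in both lines, MED22, MED11, MED7 and CDK19 end below, and MED6 stays near it except at 200 nM.

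In the middle module MED7 and MED21 form the hinge that lets the module flex. MED7 (ENSG00000155868, chromosome 5, 156564423 to 156586030, hg19), with a mean of 3.52 FPKM the least abundant middle gene, stood at 9.66, 7.97, 5.50, 2.63 and 0.857 FPKM in KYSE510, and at 0.754 FPKM at 200 nM. In TE7 MED7 stood at 5.83, 2.97, 2.69, 1.45 and 1.04 FPKM, and at 0.844 FPKM at 200 nM. From 4 h on all libraries lay below both DMSO libraries. MED7 fell by 2.13 ± 0.35 at 12 h (adjusted p = 0.00450 by limma, kept in 21 of 21 alternatives) and fell by 2.25 ± 0.35 at 200 nM (0.00232, kept in 20 of 20). At levels near 1 FPKM the pseudocount of 1 understates the change: the 12 h change was -2.87 with a pseudocount of 0.1 and -1.08 with a pseudocount of 5. MED21 stood at 32.5, 30.9, 27.8, 22.1 and 12.8 FPKM in KYSE510, and at 9.24 FPKM at 200 nM. In TE7 MED21 stood at 27.4, 22.6, 21.1, 17.6 and 14.0 FPKM, and at 4.58 FPKM at 200 nM. From 6 h on all libraries were below both DMSO libraries. MED21 fell by 1.11 ± 0.24 at 12 h (0.0134, lost with median-of-ratios scaling, without the block and without the KYSE510 12 h library) and fell by 2.03 ± 0.24 at 200 nM (0.000940, kept in 20 of 20).

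MED4 and MED9 pair with each other in the middle module. MED4 stood at 26.8, 33.0, 39.9, 38.6 and 30.9 FPKM in KYSE510, and at 11.3 FPKM at 200 nM. In TE7 MED4 stood at 49.8, 54.2, 63.7, 66.3 and 48.0 FPKM, and at 13.7 FPKM at 200 nM. No 12 h library of MED4 lay outside the range of DMSO, and both 200 nM libraries lay below it. MED9 (ENSG00000141026, chromosome 17, 17380300 to 17396540, hg19) stood at 7.19, 6.51, 3.90, 3.12 and 2.05 FPKM in KYSE510, and at 2.54 FPKM at 200 nM. In TE7 MED9 stood at 9.52, 9.66, 7.94, 5.33 and 3.28 FPKM, and at 3.50 FPKM at 200 nM. Both 12 h libraries of MED9 were below both DMSO libraries and near the 200 nM level of their line. MED9 fell by 1.36 ± 0.22 at 12 h (adjusted p = 0.00420 by limma, lost only without the block among 21 alternatives), where MED4 differed by 0.07 ± 0.19 (0.809). With median-of-ratios scaling MED4 was called higher at 12 h and in the trend over the hours. At 200 nM MED4 fell by 1.48 ± 0.19 (0.00128, lost without the block) and MED9 fell by 1.22 ± 0.22 (0.00412, lost with median-of-ratios scaling and without the block). From 50 to 200 nM MED4 fell by 1.94 ± 0.19 (0.000910, kept in 20 of 20), while MED9 differed by -0.36 ± 0.22 (0.262).

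MED31 sits with MED7 at the knob of the middle module, to which MED10 also belongs. MED10, the most abundant middle gene with a mean of 56.6 FPKM, stood at 43.1, 43.9, 47.0, 45.3 and 33.8 FPKM in KYSE510, and at 18.3 FPKM at 200 nM. In TE7 MED10 stood at 69.0, 85.9, 101, 97.6 and 63.3 FPKM, and at 30.4 FPKM at 200 nM. Both 200 nM libraries lay below both DMSO libraries, as did the KYSE510 12 h library. MED31 stood at 14.7, 11.5, 12.0, 9.69 and 7.63 FPKM in KYSE510, and at 3.22 FPKM at 200 nM. In TE7 MED31 stood at 11.9, 9.96, 9.10, 8.32 and 8.99 FPKM, and at 1.81 FPKM at 200 nM. The 200 nM libraries were the lowest of each line. MED10 fell by 1.17 ± 0.18 at 200 nM (adjusted p = 0.00233 by limma, lost with median-of-ratios scaling and without the block), and MED31 fell by 2.05 ± 0.23 (0.000776, kept in 20 of 20). The MED31 locus shares 1227 bases with TXNDC17, which averaged 172 FPKM against 9.07 FPKM for MED31, and without known strand the reads of the shared stretch cannot be told apart.

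MED1, which docks nuclear receptors, stood at 17.1, 21.3, 19.0, 18.3 and 8.89 FPKM in KYSE510, and at 10.2 FPKM at 200 nM. In TE7 MED1 stood at 16.0, 19.5, 16.4, 12.4 and 4.34 FPKM, and at 3.52 FPKM at 200 nM. At 2 h both libraries were above both DMSO libraries, and at 12 h and 200 nM both were below. MED1 fell by 1.27 ± 0.33 at 12 h (adjusted p = 0.0228 by limma, lost with median-of-ratios scaling, with no filter, without the block, and without the TE7 DMSO library or either 12 h library) and fell by 1.30 ± 0.33 at 200 nM (0.0160, lost with median-of-ratios or equal-sum scaling, without the block, and without the TE7 DMSO or TE7 200 nM library). Its locus shares 1949 bases with the annotated gene CTB-131K11.1, which averaged 8.29 FPKM. MED19, a contact of the transcription factor REST, stood at 7.28, 13.3, 12.6, 12.4 and 7.76 FPKM in KYSE510, and at 3.42 FPKM at 200 nM. In TE7 MED19 stood at 13.8, 16.7, 16.6, 13.8 and 8.96 FPKM, and at 3.07 FPKM at 200 nM. MED19 fell by 1.39 ± 0.25 at 200 nM (0.00437, lost with median-of-ratios scaling), below both DMSO libraries, and differed by -0.25 ± 0.25 at 12 h (0.50).

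MED26 (ENSG00000105085, chromosome 19, 16685718 to 16739873, hg19), which recruits elongation factors and is found in Mediator without the kinase module, was the lowest member in DMSO in both lines. MED26 stood at 3.26, 7.88, 9.06, 7.75 and 13.3 FPKM in KYSE510, and at 1.65 FPKM at 200 nM. In TE7 MED26 stood at 4.32, 6.17, 6.71, 5.09 and 8.88 FPKM, and at 5.26 FPKM at 200 nM. All 8 libraries at 50 nM were above both DMSO libraries, and the 200 nM libraries lay on either side of them. The difference at 12 h was 1.32 ± 0.44 (adjusted p = 0.0556 by limma), which passed with median-of-ratios scaling at 1.85 (0.0225). Over the hours MED26 rose by 0.088 ± 0.023 per hour on the log2 scale (0.0149), a call lost without either 12 h library.

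MED14, the scaffold, stood at 18.3, 10.7, 11.0, 11.2 and 9.60 FPKM in KYSE510, and at 10.1 FPKM at 200 nM. In TE7 MED14 stood at 11.2, 10.7, 11.2, 10.5 and 8.34 FPKM, and at 7.05 FPKM at 200 nM. Apart from the KYSE510 DMSO library its 11 other levels lay within 7.05 to 11.2 FPKM. MED14 fell by 0.69 ± 0.23 at 200 nM (adjusted p = 0.0480 by limma), a call that was kept in 5 of 20 alternatives and became 0.10 with median-of-ratios scaling.

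In the tail, MED15 (ENSG00000099917, chromosome 22, 20850200 to 20941919, hg19), a target of the sterol regulator SREBP, had the highest mean at 39.0 FPKM. MED15 stood at 29.4, 22.9, 21.7, 24.0 and 45.6 FPKM in KYSE510, and at 16.2 FPKM at 200 nM. In TE7 MED15 stood at 41.1, 42.3, 41.1, 46.3 and 74.0 FPKM, and at 63.4 FPKM at 200 nM. Both 12 h libraries were above both DMSO libraries, while at 200 nM KYSE510 was below its DMSO level and TE7 above. The difference was 0.72 ± 0.32 at 12 h (adjusted p = 0.129 by limma, 0.0256 and called higher with median-of-ratios scaling) and -0.10 ± 0.32 at 200 nM (0.817). MED15 rose over the hours by 0.068 ± 0.019 per hour (0.0205), a call lost without either 12 h library, with no filter and with equal-sum scaling.

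MED29 was the tail gene that fell at 12 h. MED29 stood at 13.6, 18.6, 16.9, 15.8 and 6.61 FPKM in KYSE510, and at 4.66 FPKM at 200 nM. In TE7 MED29 stood at 16.0, 15.1, 13.3, 11.0 and 4.75 FPKM, and at 5.62 FPKM at 200 nM. Both 12 h and both 200 nM libraries were below both DMSO libraries, as were the TE7 libraries at 4 and 6 h. MED29 fell by 1.25 ± 0.25 at 12 h (adjusted p = 0.00881 by limma, lost with median-of-ratios scaling and without the TE7 12 h library) and fell by 1.37 ± 0.25 at 200 nM (0.00444, lost with median-of-ratios scaling). MED30 stood at 71.2, 17.5, 17.1, 17.5 and 25.6 FPKM in KYSE510, and at 14.0 FPKM at 200 nM. In TE7 MED30 stood at 37.9, 34.2, 33.4, 32.9 and 37.7 FPKM, and at 15.2 FPKM at 200 nM. The KYSE510 DMSO library was far above the other 11, and in TE7 only the 200 nM library was well below DMSO. MED30 fell by 1.77 ± 0.43 at 200 nM (0.0147, lost with median-of-ratios scaling and without the TE7 200 nM library), with -2.27 in KYSE510 and -1.26 in TE7.

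MED16, MED23 and MED24 lie together in the tail, where MED23 is the target of ELK1 and of the adenoviral E1A protein. MED16 stood at 19.2, 20.7, 21.5, 22.9 and 14.0 FPKM in KYSE510, and at 3.93 FPKM at 200 nM. In TE7 MED16 stood at 14.4, 10.6, 9.90, 7.67 and 2.06 FPKM, and at 4.89 FPKM at 200 nM. The 12 h change on the log2 scale was -2.34 in TE7 and -0.43 in KYSE510, and the joint difference was -1.38 ± 0.52 (adjusted p = 0.0861 by limma). At 200 nM MED16 fell by 1.71 ± 0.52 (0.0345, kept in 7 of 20 alternatives). MED23, with a mean of 5.90 FPKM the least abundant tail gene, stood at 9.74, 7.08, 5.86, 5.56 and 7.37 FPKM in KYSE510, and at 2.18 FPKM at 200 nM. In TE7 MED23 stood at 6.89, 7.29, 5.32, 5.45 and 4.90 FPKM, and at 3.16 FPKM at 200 nM. MED23 fell by 1.34 ± 0.26 at 200 nM (0.00603, lost with median-of-ratios scaling), both libraries being below DMSO. MED24 passed the threshold in no comparison without rescaling, and with median-of-ratios scaling it was called higher in the trend over the hours. Its levels lay between 20.1 and 35.3 FPKM in KYSE510 and between 21.7 and 42.4 FPKM in TE7, and at 200 nM it was the lowest of its line in KYSE510 and the highest in TE7.

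MED25, a target of the viral activator VP16, stood at 47.2, 33.5, 35.1, 36.5 and 36.3 FPKM in KYSE510, and at 18.6 FPKM at 200 nM. In TE7 MED25 stood at 31.4, 28.1, 27.7, 26.5 and 22.0 FPKM, and at 18.4 FPKM at 200 nM. MED25 fell by 1.02 ± 0.21 at 200 nM (adjusted p = 0.00722 by limma, lost with median-of-ratios or equal-sum scaling and without the block), and its 12 h libraries overlapped DMSO. MED27 stood at 19.3, 34.8, 43.0, 40.9 and 24.7 FPKM in KYSE510, and at 16.6 FPKM at 200 nM. In TE7 MED27 stood at 31.3, 28.3, 31.3, 29.6 and 22.3 FPKM, and at 9.17 FPKM at 200 nM. The 50 nM levels of MED27 were above DMSO in KYSE510 and at or below it in TE7. From 50 to 200 nM at 6 h MED27 fell by 1.42 ± 0.32 (0.0165, kept in 14 of 20 alternatives), while against DMSO its difference was -0.94 ± 0.32 (0.0516). MED28 passed in no comparison without rescaling, and with median-of-ratios scaling it was called lower in TE7 than in KYSE510. Its levels lay between 12.3 and 26.1 FPKM in KYSE510 and between 9.64 and 21.9 FPKM in TE7.

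In the kinase module, MED13 (ENSG00000108510, chromosome 17, 60019966 to 60142643, hg19), which ties the module to the core, stood at 8.79, 13.7, 19.2, 25.1 and 38.2 FPKM in KYSE510, and at 5.66 FPKM at 200 nM. In TE7 MED13 stood at 8.81, 11.0, 18.5, 24.1 and 27.7 FPKM, and at 5.58 FPKM at 200 nM. Each later 50 nM library was above the one before it in both lines, all 8 were above both DMSO libraries, and both 200 nM libraries were below them. MED13 rose by 1.78 ± 0.20 at 12 h (adjusted p = 0.00145 by limma, kept in 21 of 21 alternatives), 2.19 above the all-gene median. Its 6 h change of 1.38 ± 0.20 (0.0184) lay between 1.30 and 1.47 with each library left out, and the call was lost without any 1 of the 2, 4 and 6 h libraries or without the block. The difference at 200 nM against DMSO was -0.57 ± 0.20 (0.0534), and from 50 to 200 nM MED13 fell by 1.95 ± 0.20 (0.000920, kept in 20 of 20).

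CDK19 (ENSG00000155111, chromosome 6, 110931181 to 111137161, hg19), the paralog of CDK8, was the least abundant kinase module gene with a mean of 3.25 FPKM. CDK19 stood at 12.9, 3.53, 3.02, 2.33 and 1.14 FPKM in KYSE510, and at 1.56 FPKM at 200 nM. In TE7 CDK19 stood at 6.16, 3.19, 1.88, 1.37 and 0.836 FPKM, and at 1.07 FPKM at 200 nM. All 10 THZ1 libraries were below both DMSO libraries from 2 h on, and the 12 h library was the lowest of each line. CDK19 fell by 1.83 ± 0.26 at 6 h (adjusted p = 0.0184 by limma, lost without any 1 of the 2, 4 and 6 h libraries or without the block), fell by 2.33 ± 0.26 at 12 h (0.00144, kept in 21 of 21) and fell by 2.12 ± 0.26 at 200 nM (0.000960, kept in 20 of 20). From 50 to 200 nM its difference was -0.29 ± 0.26 (0.430).

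CDK8, the other kinase, stood at 14.0, 10.2, 8.96, 7.22 and 4.39 FPKM in KYSE510, and at 6.02 FPKM at 200 nM. In TE7 CDK8 stood at 15.4, 13.2, 11.6, 8.40 and 7.83 FPKM, and at 5.18 FPKM at 200 nM. All 10 THZ1 libraries lay below both DMSO libraries, as for CDK19. CDK8 fell by 1.19 ± 0.24 at 12 h (adjusted p = 0.0100 by limma, lost with median-of-ratios scaling, without the block and without the KYSE510 12 h library) and fell by 1.26 ± 0.24 at 200 nM (0.00578, lost with median-of-ratios scaling). CCNC, the cyclin of both kinases and with a mean of 43.1 FPKM the most abundant gene of the module, stood at 74.9, 42.6, 44.3, 42.1 and 25.8 FPKM in KYSE510, and at 23.5 FPKM at 200 nM. In TE7 CCNC stood at 46.8, 51.8, 56.4, 56.6 and 27.1 FPKM, and at 25.6 FPKM at 200 nM. The 12 h and 200 nM levels of the lines are near each other and lie below both DMSO libraries. CCNC fell by 1.13 ± 0.27 at 12 h (0.0177, lost with median-of-ratios scaling and without either 12 h library) and fell by 1.24 ± 0.27 at 200 nM (0.00936, lost with median-of-ratios and equal-sum scaling).

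MED13L, the paralog of MED13, stood at 14.9, 10.7, 11.7, 12.7 and 10.7 FPKM in KYSE510, and at 4.60 FPKM at 200 nM. In TE7 MED13L stood at 7.02, 8.29, 8.43, 8.20 and 9.04 FPKM, and at 5.51 FPKM at 200 nM. No 50 nM condition separated from DMSO, and the 200 nM libraries were below both. MED13L fell by 0.90 ± 0.29 at 200 nM (adjusted p = 0.0387 by limma, kept in 6 of 20 alternatives). MED12, which activates the kinase, passed in no comparison: its levels were 6.85, 15.7, 16.1, 14.4 and 8.58 FPKM in KYSE510, and 3.33 FPKM at 200 nM, and in TE7 they were 10.5, 9.27, 6.13, 6.03 and 2.83 FPKM, and 6.16 FPKM at 200 nM. At 50 nM they were above DMSO in KYSE510 and below it in TE7.

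For paralogs of the kinase module, FPKM levels were set against each other as ratios. The ratio of MED13 to MED13L was 0.591, 1.27, 1.63, 1.98 and 3.57 in KYSE510 along DMSO, 2, 4, 6 and 12 h, and 1.23 at 200 nM. In TE7 it was 1.25, 1.33, 2.20, 2.93 and 3.06, and 1.01 at 200 nM. At 50 nM each ratio was above that of the time before in both lines. The ratio of CDK8 to CDK19 was 1.09, 2.88, 2.97, 3.09 and 3.85 in KYSE510, and 3.87 at 200 nM. In TE7 it was 2.50, 4.14, 6.18, 6.13 and 9.37, and 4.85 at 200 nM. All THZ1 libraries thus had more CDK8 per CDK19 than the DMSO library of their line, in a pair where both transcripts were lower. MED12L, a paralog of MED12 outside the 32 genes, stood at 0.280, 1.51, 1.32, 1.43 and 1.85 FPKM in KYSE510, and at 2.78 FPKM at 200 nM. In TE7 MED12L stood at 0.625, 0.448, 0.649, 0.785 and 1.51 FPKM, and at 1.05 FPKM at 200 nM. MED12L rose by 0.95 ± 0.32 at 200 nM (adjusted p = 0.0464 by limma), at levels under 3 FPKM. The ratio of MED12 to MED12L went from 24.5 in DMSO to 1.20 at 200 nM in KYSE510 and from 16.9 to 5.86 in TE7. The ratios were not tested.

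**Figure D4:**
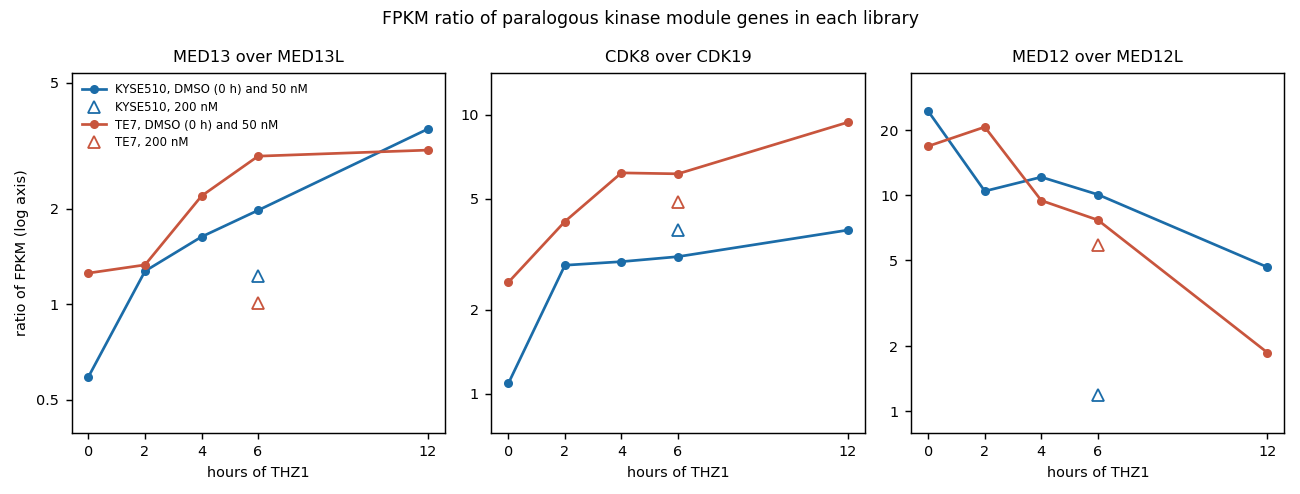
Ratio of FPKM levels (log axis) for MED13 over MED13L, CDK8 over CDK19 and MED12 over MED12L against hours at 50 nM THZ1, DMSO drawn at 0 h, 1 line per cell line and triangles for 200 nM at 6 h. At 12 h MED13 stands at 3.57 times MED13L in KYSE510 and 3.06 times in TE7, and CDK8 at 3.85 and 9.37 times CDK19.

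The direct comparison of doses at 6 h called 17 members lower at 200 than at 50 nM and 0 higher, 53.1% of the members against 24.8% of all genes in either direction and 21.9% called lower. They were 6 of 7 head genes (all but MED22), 6 of 9 middle genes, 3 of 9 tail genes, 2 of 6 kinase module genes and not MED14. The largest were MED6 at -2.17, MED13 at -1.95, MED4 at -1.94 and MED19 at -1.73, the last with adjusted p = 0.00307 by limma. With MED31 (-1.53) these calls were kept in 20 of 20 alternatives. MED10 fell by 1.46, MED8 by 1.56, MED20 by 1.52, MED21 by 1.46, MED29 by 1.21, MED17 by 1.18 and MED1 by 1.17, and MED18, MED25 and CCNC fell by 0.76, 0.72 and 0.97. Of these calls MED10 was kept in 19 of 20 alternatives, MED20 in 18, MED21 in 17, MED29 in 16 and MED8 in 15. The others were lost in most: MED1 was kept in 9, MED25 in 8, CCNC in 6, and MED17 and MED18 in 5 each. The median was -0.93 over the members and -0.46 over all genes. With median-of-ratios scaling, which called 17.6% of all genes and 8.74% lower, the count was 8, all lower (MED4, MED6, MED10, MED11, MED13, MED19, MED20 and MED31). It was also 8 without the block, 6 without the KYSE510 50 nM 6 h library and 8 without that of TE7. The 200 nM and 50 nM comparisons with DMSO share their DMSO libraries.

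Between 2 and 12 h at 50 nM the changes use no DMSO library, but their SE and p-values come from the fit to all 12 libraries. MED13 rose by 1.34 ± 0.20 (adjusted p = 0.00500 by limma) and 11 members fell, 37.5% of the members against 21.9% of all genes (1.88% higher and 20% lower). Those that fell were MED8, MED11, MED20 and MED22 in the head, MED1, MED7, MED9 and MED21 in the middle, MED29 in the tail, and CDK8 and CDK19 in the kinase module. MED22 fell by 1.99 ± 0.32 (0.00613), MED8 fell by 1.91 ± 0.34 (0.00864) and MED11 fell by 1.81 ± 0.22 (0.00285). MED11 was called in 21 of 21 alternatives. With median-of-ratios scaling 3 members were higher and 4 lower, beside 8.4% of all genes higher and 6.39% lower (14.8% in either direction). MED8, MED11, MED13, MED22 and MED29 were called in both scalings. The count was 5 without the block, 1 without either 2 h library, 6 without the TE7 12 h library, and 22 without the KYSE510 DMSO and both 200 nM libraries.

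Fitted as a straight line over DMSO and the 50 nM hours in 10 libraries, 3 members rose with time and 14 fell, 53.1% of the members against 46% of all genes (6.91% higher and 39.1% lower). The p-values of this fit measure departures from a straight line within each line, not the spread between cultures. MED13 rose by 0.146 ± 0.020 per hour on the log2 scale (adjusted p = 0.000729 by limma), with MED26 and MED15. The 14 that fell were MED8, MED11, MED20 and MED22, MED1, MED7, MED9, MED21 and MED31, MED16 and MED29, and CCNC, CDK8 and CDK19, with slopes between -0.047 and -0.18 per hour. The slope of MED31 became 0.0031 with median-of-ratios scaling, and that of CCNC was no longer called. Of all genes that scaling called 22.5% higher and 19.9% lower. In that scaling 6 were higher and 12 lower (42.5% of all genes called), and without either 12 h library 10 members were called. No member differed between the lines in its slope in limma (3 had an unadjusted p under 0.05, and 0.0705% of all genes were called). On simulated data that test recovered 0% of log2 differences of 1 and of 2 over 12 h, the sizes tried.

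**Figure D5:**
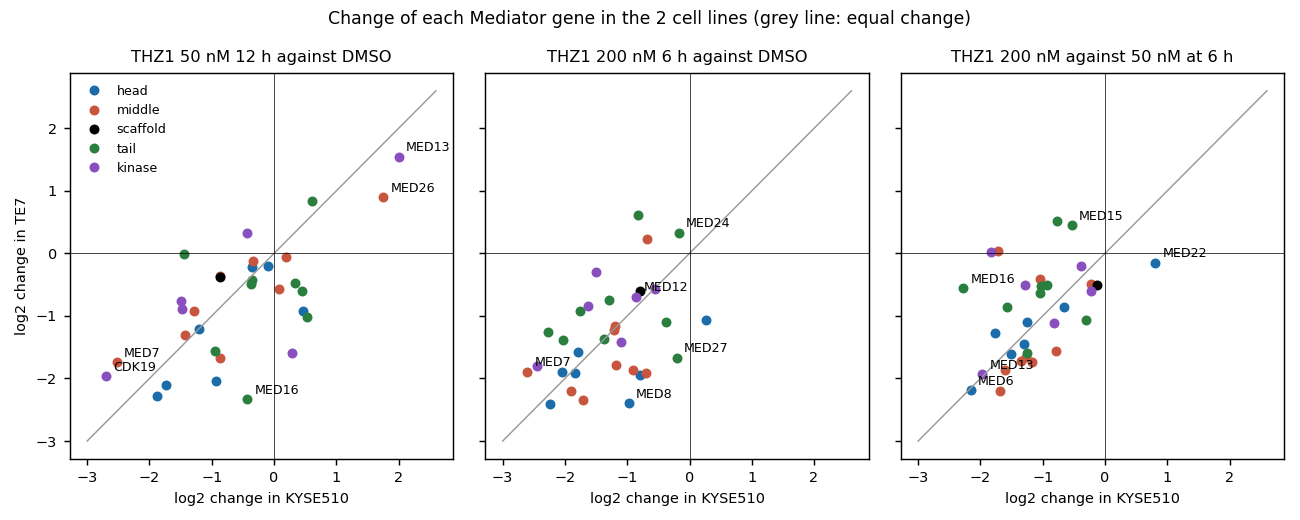
Change of each Mediator gene in log2(FPKM + 1) from DMSO in KYSE510 (horizontal) against TE7 (vertical) at 12 h and at 200 nM, and from 50 to 200 nM at 6 h, with points coloured by module. At 200 nM 28 of the 32 genes lie in the lower left (60.0% of all genes did), and MED16 at 12 h stands at -0.43 in KYSE510 and -2.34 in TE7.

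Over all conditions 10 members differed between the lines, 31.2% of the members against 46.3% of all genes (28.9% higher in TE7 and 17.5% lower). The 6 libraries of a line here come from different conditions. The p-values thus measure how steady the difference was over conditions, not the spread between cultures of a line. MED4, MED6, MED9, MED10 and MED15 were higher in TE7, and MED11, MED16, MED20, MED25 and CDK19 were lower. MED10 was higher by 0.90 ± 0.11 (adjusted p = 0.000723 by limma) and MED15 by 0.95 ± 0.18 (0.00483), with the TE7 library above that of KYSE510 in all 6 conditions for each. For MED20 the TE7 library was the lower in all 6, with a difference of -0.76 ± 0.13 (0.00337). These 3 calls were kept in 20 of 20 alternatives. With median-of-ratios scaling 4 members were higher and 10 lower, MED6 no longer being called, beside 23.3% of all genes higher and 22% lower (45.3% in either direction). With equal FPKM sums 2 members were higher and 17 lower. Without 1 of the 2, 4 or 6 h libraries of either line the count was 4 or 5, and without the KYSE510 DMSO and both 200 nM libraries it was 24. The media differ with the lines, so line and medium cannot be told apart.

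Other genes of the pathway were described from 3 lists. Of all genes, 25.2% were called lower and 3.27% higher at 12 h. At 200 nM 35.3% were lower and 3.22% higher, and 21.9% were lower from 50 to 200 nM. With median-of-ratios scaling 10.7% were lower and 11.6% higher at 12 h, and 12.1% lower and 12.2% higher at 200 nM. Of 12 RNA polymerase II subunits, POLR2A, the catalytic one, rose at 12 h by 1.63 ± 0.20 (adjusted p = 0.00190 by limma) and POLR2D fell by 1.46 ± 0.31 (0.0110, lost with median-of-ratios scaling). At 200 nM 2 fell and 0 rose, and from 50 to 200 nM 4 fell, among which POLR2A fell by 1.92 ± 0.20 (0.00102). With median-of-ratios scaling 6 of the 12 were higher at 12 h, and at 200 nM 5 were higher and 1 lower. POLR2A levels were 47.2, 60.1, 77.9, 109 and 134 FPKM in KYSE510, and 33.6 FPKM at 200 nM, and in TE7 they were 39.9, 59.8, 98.4, 123 and 139 FPKM, and 26.7 FPKM at 200 nM. Like MED13, POLR2A was above both DMSO libraries in all 8 libraries at 50 nM and below both at 200 nM. Of 10 TFIIH genes 5 fell at 12 h, all lost with median-of-ratios scaling, and 6 fell at 200 nM, led by CDK7, the target of THZ1, at -2.16 ± 0.36 (0.00317), the only 1 of the 6 called with median-of-ratios scaling. Of 10 enhancer partners of Mediator, among them acetyltransferases and cohesin, MAU2, NIPBL and STAG2 fell at 12 h, the last 2 being lost with median-of-ratios scaling. At 200 nM 7 fell, led by RAD21 at -2.20 and SMC3 at -1.93, and with median-of-ratios scaling 2 were lower (SMC3 and CREBBP, not RAD21) and 3 higher. The median changes at 200 nM were -0.41 for the polymerase, -1.04 for TFIIH and -1.27 for the partners, beside -1.32 for the 32 Mediator genes and -0.65 for all genes.

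The span of the members' loci in hg19 was set beside their changes as a description over 32 genes that share all libraries. Pearson's r was 0.33 at 12 h and 0.37 at 200 nM, and Spearman's rho 0.35 and 0.39. The 13 members with loci under 20 kb had a median change of -0.72 at 12 h and -1.68 at 200 nM, and the 5 with loci over 100 kb had -0.07 and -0.94.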

How the data were processed

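Polyadenylated RNA was extracted with RNeasy and sequenced as TruSeq libraries on a HiSeq, per the labels' protocols. The authors deposited 1 Cufflinks table of FPKM values per library, on hg19 after alignment with STAR, per the submitters' processing notes. For tool versions, annotation and strand setting the entry is: not given in the sources used here. No counts were used, so the depth of the libraries is unknown and precision is given by the deposited bounds and the spread between lines.

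From these values log2(FPKM + 1) was computed for the 15610 genes that reached 1 FPKM in 2 or more of 12 libraries. Limma 3.58.1 in R 4.3.3 was fitted with the cell line as a block, empirical Bayes with a mean-variance trend and two-sided tests (5 residual and 2.86 prior degrees of freedom). The hour trend used 10 libraries and counts DMSO as 0 h. The block holds by design, since paired libraries come from the same line. A call is a Benjamini-Hochberg adjusted p under 0.05. Where an identifier had several loci, values were summed. In simulated data with 200 changed genes, the condition comparisons recovered 8% to 15% of changes of 1 on the log2 scale and 57% to 68% of changes of 2. Those 200 of 15610 genes are a far smaller share than the 28.4% called at 12 h and the 38.5% called at 200 nM. With fewer changed genes the Benjamini-Hochberg adjustment is stricter, so these rates do not give the recovery in comparisons where many genes change.

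Members and lists were chosen with earlier results of these data known. All 32 members are accounted for. Every library's value is given for each member past the threshold in any comparison without rescaling, for MED12L and for the most and least abundant member of each module. Of the other lists at most 3 genes past the threshold were named per comparison. Some results on genes outside the 32 are not reported here. Alternatives were pseudocounts of 0.1 and 5, no filter, median-of-ratios scaling, equal FPKM sums, no mean-variance trend, no block, the highest locus, leaving out each library, and leaving out the KYSE510 DMSO and both 200 nM libraries. Promoter bases are RefSeq's on GRCh38.p14, and coordinates of genes are those of the files on hg19.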

Additional observations from a re-analysis of the deposited data

Results flagged for a closer look

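For 5 members all 4 libraries at 50 nM were above DMSO in one line and all 4 below it in the other, and this difference between the lines was not tested. These are 15.6% of the members, and the same pattern was found for 2000 of the 15610 genes tested, 12.8%, of which 1499 were higher in KYSE510 and lower in TE7. As the mean log2 change over the 4 libraries, MED12 stood at 0.87 in KYSE510 and -0.79 in TE7, a TE7 minus KYSE510 difference of -1.66. MED17 stood at 0.71 and -0.66, a difference of -1.37. MED28 stood at 0.58 and -0.55, a difference of -1.13, and MED27 at 0.83 and -0.17, a difference of -1.0. MED13L went the other way, at -0.35 and 0.24, a difference of 0.59. The related test of a difference in the hour trend gave adjusted p-values by limma of 0.245 to 0.724 for these genes. In KYSE510 the direction rests on the DMSO library that stands apart from the others of its line, whose part in it was not tested.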

How the results depend on the processing

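No setting changed the direction of a called member except 2: with median-of-ratios scaling MED14 at 200 nM became 0.10 and the hour slope of MED31 became 0.0031, and of the other single-gene values 1612 kept their call and 334 lost it. Counts of members called moved by over 1.5 times as follows. Without the replicate block they were 0 at 6 h, 7 at 12 h, 8 between doses and 5 for 12 h against 2 h. The count at 200 nM without the block, 16 against 24, moved by 1.5 times and not by more. With a pseudocount of 5, or no mean-variance trend, 5 were called at 6 h. Median-of-ratios scaling gave 9 at 200 nM, 8 between doses and 7 for 12 h against 2 h, and equal FPKM sums gave 9 between doses and 19 between lines. Without the KYSE510 DMSO and both 200 nM libraries the counts were 4 at 4 h, 11 at 6 h, 21 at 12 h, 22 for 12 h against 2 h and 24 between lines. Leaving out each library gave 0 to 4 at 2 h, 0 to 6 at 4 h, 0 to 7 at 6 h, 8 to 17 at 12 h, 21 to 24 at 200 nM, 6 to 20 between doses, 1 to 15 for 12 h against 2 h, 4 to 14 between lines, 10 to 24 for the hour trend and 0 to 0 for its difference between lines. Module medians moved with median-of-ratios scaling to -0.66 (head), -0.054 (middle), 0.17 (tail, a change of sign) and -0.32 (kinase) at 12 h, and to -1.0, -0.65, -0.18 and -0.27 at 200 nM. With MED19 and MED27 to MED30 counted in the head, the 12 h medians were -0.50 (head) and -0.86 (middle) and the 200 nM head median was -1.53. The causes were not tested. Shares of all genes called are not given beside the counts in this section. The missing counts and 2 lines per condition limit precision throughout.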
